A study of Homo sapiens with 1 sample.

Results

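The FOX, SOX, TBX and GATA factor genes were examined in the chromatin accessibility map of 786-O cells. Members were the protein-coding genes of the GENCODE annotation of hg38 whose symbol is FOX with a letter and a number, SOX with a number, TBX with a number or TBXT, or GATA1 to GATA6. This gave 90 genes of 20033 on the primary chromosomes, with 51 FOX, 19 SOX, 14 TBX and 6 GATA genes. FOXL2NB, a neighbour of FOXL2 that has no forkhead domain, was left out. The data were 1 ATAC-seq peak list from 1 library of 786-O, a long-established line from a human kidney cancer of the clear cell type without functional VHL, transduced with an empty vector and carrying no added DPF3. It was the control arm of a study on DPF3, which is part of SWI/SNF, a complex that remodels chromatin, and no other arm was analysed here. With 1 library there was no replicate and no test, so every comparison is a description of this library.

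FOX proteins bind DNA through a forkhead domain, SOX proteins bend it through an HMG box, TBX proteins bind through a T-box, and GATA factors read their motif through zinc fingers. Members of each family set cell identity in the embryo, and several can bind sites in closed chromatin. In the kidney, FOXC1, FOXC2, FOXD1 and FOXD2 act in the nephrogenic mesenchyme or stroma, SOX4, SOX8, SOX9 and SOX11 in nephron and ureteric epithelium, TBX2, TBX3 and TBX18 in the ureteric mesenchyme, and GATA2 and GATA3 in the nephric duct and urogenital tract.

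A peak was assigned by its summit, the base of highest read pileup. A promoter was the stretch between 1 kb before and 100 bp past any annotated transcription start site (TSS) of a gene, a gene body was the rest of the gene, and the locus also took in 50 kb to each side. A member with a promoter summit is called open. Fold means the pileup at the summit over the genome-wide background, as the authors' peak caller wrote it, and its 95% interval covers the counting error of that pileup alone. Over the 88615 peaks on primary chromosomes the median fold was 10.8, and the weakest peaks had a pileup of 9 and a fold of 5.15 (95% interval 2.64 to 9.32). A member without a peak was therefore without one in this list, which does not show that its chromatin was inaccessible.

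The following stretches around the highest promoter summits, of at most 50 bases to each side, show what lay under a few of the FOX, SOX and GATA promoters described further on. They were read from hg38, 5′ to 3′ on the strand of the gene, and cut back where they ran into an exon. Capitals mark every match to the words searched for further on, which here were only CCAAT and its reverse complement ATTGG, the box bound by NF-Y.
FOXD2 (chr1:47437799-47437899, + strand): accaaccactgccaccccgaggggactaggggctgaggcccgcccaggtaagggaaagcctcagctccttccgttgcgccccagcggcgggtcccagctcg
SOX4 (chr6:21593634-21593734, + strand): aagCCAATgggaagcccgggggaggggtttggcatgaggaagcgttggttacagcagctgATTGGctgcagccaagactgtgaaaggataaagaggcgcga
GATA2 (chr3:128487922-128488007, - strand): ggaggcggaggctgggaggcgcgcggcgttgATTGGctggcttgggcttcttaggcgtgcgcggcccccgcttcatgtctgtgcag
GATA6 (chr18:22169430-22169530, + strand): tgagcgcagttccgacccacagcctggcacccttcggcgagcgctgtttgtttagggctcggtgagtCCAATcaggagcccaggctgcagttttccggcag
SOX4 held the box on both strands, GATA2 held it as ATTGG, and GATA6 held it as CCAAT. The stretch of FOXD2 held none of the words searched.

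The next stretches are the 100 bases upstream of the canonical TSS of 5 members without any promoter peak, from the same genome and on the strand of the gene. FOXE3 is shown because it lies next to an open member, SOX11 and GATA3 because they are kidney genes without a peak near the TSS, and FOXD4 and FOXD4L6 because they are near-identical copies. Capitals again mark matches to any word searched.
FOXE3 (chr1:47416185-47416284, + strand): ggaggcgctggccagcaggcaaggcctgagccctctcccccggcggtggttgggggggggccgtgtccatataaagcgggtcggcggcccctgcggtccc
SOX11 (chr2:5692284-5692383, + strand): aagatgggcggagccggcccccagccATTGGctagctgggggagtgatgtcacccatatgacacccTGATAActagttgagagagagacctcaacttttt
GATA3 (chr10:8054588-8054687, + strand): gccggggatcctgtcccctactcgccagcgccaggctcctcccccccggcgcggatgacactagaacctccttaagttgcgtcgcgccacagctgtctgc
FOXD4 (chr9:118418-118517, - strand): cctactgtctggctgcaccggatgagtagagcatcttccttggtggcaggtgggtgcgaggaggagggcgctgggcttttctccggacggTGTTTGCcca
FOXD4L6 (chr9:41128682-41128781, - strand): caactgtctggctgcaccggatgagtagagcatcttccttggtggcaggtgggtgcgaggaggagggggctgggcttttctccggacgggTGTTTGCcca
SOX11 carried an ATTGG box and a GATA word (TGATAA) with no peak called there, and both FOXD4 copies carried the forkhead word TGTTTGC. Between 250 bp upstream and 50 bp downstream of their TSSs, FOXD4 and FOXD4L6 were 97.3% identical over 301 aligned columns.

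A promoter peak was called for 34 of the 90 members, or 37.8% (95% Clopper-Pearson interval 27.8% to 48.6%), against 61.4% of all protein-coding genes. By family the count was 21 of 51 FOX genes (41.2%), 6 of 19 SOX genes (31.6%), 5 of 14 TBX genes (35.7%) and 2 of 6 GATA genes (33.3%), and the intervals of the families overlapped. At the canonical TSS alone 29 members (32.2%) had a peak, against 52.2% of protein-coding genes.

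Member genes have fewer annotated TSSs than most genes, and by the definition used here each TSS adds a window in which a summit counts. Whether this accounts for the lower share was not tested. The median was 2 TSSs for members and 5 for all protein-coding genes, and the median gene length was 7.73 kb against 27.5 kb. Among genes with 1 TSS the shares hardly differed, at 9 of 36 members (25%; 12.1% to 42.2%) and 25.5% of all such genes. The 36 include all 6 FOXD4 copies, none of them open, where absence cannot be told apart from missing reads, as described further on. With 2 to 4 TSSs 14 of 33 members (42.4%; 25.5% to 60.8%) were open, against 49.6%. With 5 or more TSSs 11 of 21 members (52.4%; 29.8% to 74.3%) were open, against 77.1%, which lies above the interval of the members.

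Within classes of promoter GC content the member share was lower than that of all genes. Member promoters were richer in G and C than the rest, with a median of 60.6% against 54.6%. The members stood at 3 of 19 (15.8%; 3.38% to 39.6%) against 42.4% below 50% GC. From 50% to 60% they stood at 11 of 25 (44%; 24.4% to 65.1%) against 68.4%. From 60% to 70% they stood at 17 of 36 (47.2%; 30.4% to 64.5%) against 71.5%. At 70% or more they stood at 3 of 10 (30.0%; 6.67% to 65.2%) against 72.9%. Without the 6 FOXD4 copies, taken up further on, 3 of 13 members below 50% GC were open (23.1%; 5.04% to 53.8%), and 42.4% lies within that interval. When TSS number and GC were held together, 5 of 18 members (27.8%; 9.69% to 53.5%) with 1 TSS and at least 60% GC were open. Of all such genes 43.0% were open, which lies within the interval. Of members with more TSSs and at least 60% GC, 15 of 28 (53.6%; 33.9% to 72.5%) were open, against 74.8%, which lies above that interval.

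**Figure D1:**
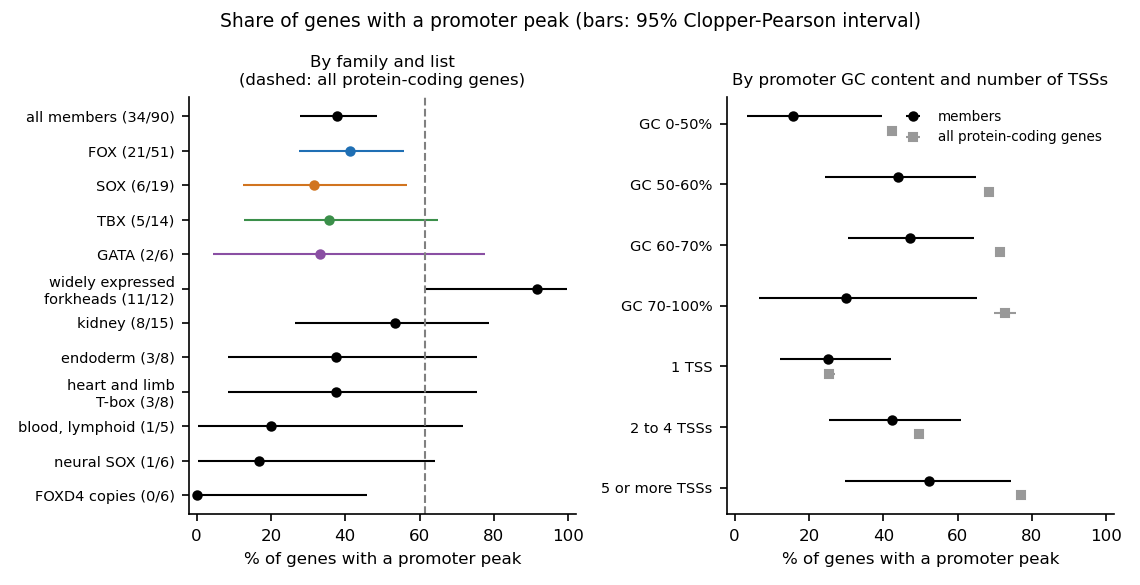
Percent of genes with a promoter peak, as points with 95% Clopper-Pearson intervals, for the members by family and list (left; the dashed line is the 61.4% of all protein-coding genes) and by promoter GC content and number of TSSs (right; black circles for members, grey squares for all protein-coding genes). The widely expressed forkheads lie at 91.7%, the FOXD4 copies at 0, and members with 1 TSS, which include the FOXD4 copies, lie beside all genes with 1 TSS. The lists were chosen with earlier results of these data known.

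The 34 open members had a median highest promoter fold of 22.4 (95% interval of the median 18.6 to 25.8), against 25.8 over all open protein-coding genes. The median over every promoter peak of any gene was 19.6, and unlike the 25.8 it is not limited to each gene's highest peak. The folds of the 34 members ran from 6.18 at TBX10 to 76.8 at FOXN2, and 20 of 34 lay above 19.6. The median width over the 34 was 1225 bp, close to the 1196 bp of all open genes. In 24 of the 34 the summit lay within 250 bp of a TSS, and 27 had 1 promoter peak. No share over all open genes was set beside these last counts, so they describe the 34 only.

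Among the forkhead genes, FOXN2, a broadly expressed member, had the highest promoter. Its fold was 76.8 (65.0 to 90.1) at a summit 236 bp upstream of the canonical TSS, above 99.3% of all peaks in the library. FOXD2 followed with 52.0 (42.4 to 63.2), in a peak 2563 bp wide. FOXO6, the FOXO gene best known from brain, reached 40.7 (32.3 to 50.7). The intervals of FOXD2 and FOXO6 overlapped, and that of FOXN2 lay above both. FOXP4, a repressor known from lung and gut epithelium, reached 31.9 (24.6 to 40.9). FOXA3, a liver and gut forkhead, reached 29.4 (22.3 to 38.0), but its summit lay 1000 bp upstream of the canonical TSS and in the promoter of the neighbouring gene SYMPK as well. FOXP2, the gene tied to speech and vocal learning, had no summit in its canonical promoter. It reached 28.3 (21.4 to 36.8) at another TSS, with the summit 328526 bp upstream of the canonical one, in a peak of 3369 bp. Its other promoter peak, with a fold of 7.73 (4.46 to 12.6), covered the canonical TSS, but the summit lay 797 bp downstream. FOXP2 lies on chromosome 7, whose promoter peaks had a median fold of 25.8, the highest of any chromosome. The other 15 open FOX genes ranged from 8.76 at FOXS1 to 24.2 at FOXK2.

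Of the forkheads that are expressed in most tissues, 11 of 12 were open (91.7%; 61.5% to 99.8%), against 61.4% of all protein-coding genes and 77.1% of those with 5 or more TSSs, the latter within the interval. These are the cell cycle activator FOXM1 (fold 12.4), the insulin-responsive factors FOXO1 (17.5) and FOXO4 (17.0), the nutrient-linked repressors FOXK1 (14.9) and FOXK2 (24.2), and FOXJ2, FOXJ3, FOXN2, FOXN3, FOXP1 and FOXP4. The median of the 11 was 18.0 (interval of the median 14.9 to 31.9), and the 25.8 of all open genes lies within it. The 12 genes had a median of 6.5 TSSs. This list, like the kidney and lineage lists below, was chosen with earlier results of these data known. Its share and interval are therefore a description only. Breadth of expression is background here, and no expression data were used. FOXM1 shared its peak with the promoters of RHNO1 and TULP3, so that peak cannot be given to FOXM1 alone. The same holds for 11 of the 34 open members, whose highest promoter peak also lay in the promoter of another gene. Among them are FOXN2, with an unnamed neighbour, and SOX12, with NRSN2-AS1. No share over all open genes was set beside the 11, so it describes these members only. FOXO3, a stress-responsive FOXO gene, was the exception among the 12. A peak of 3586 bp with a fold of 32.5 (25 to 41.5) covered its canonical TSS, but the summit lay 2393 bp upstream, in the promoter of an unnamed neighbouring gene.

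**Figure D2:**
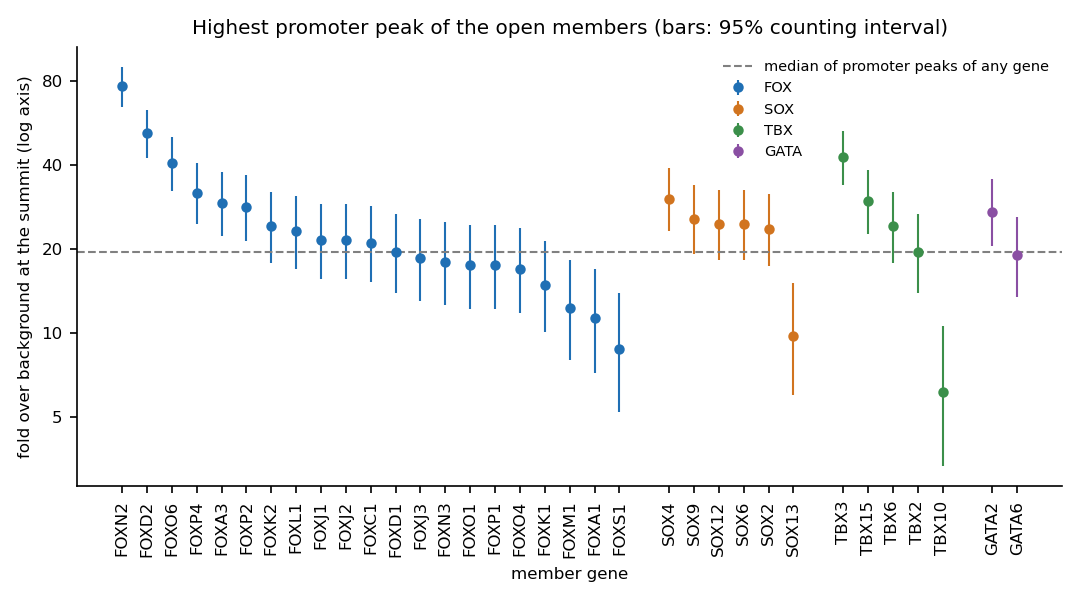
Fold over background at the summit of the highest promoter peak (log axis) for each of the 34 open members, grouped by family and ordered by fold, with 95% counting intervals as bars. FOXN2 stands at the top at 76.8 and TBX10 at the bottom at 6.18. The dashed line is the median of 19.6 over every promoter peak of any gene, not only the highest of each gene. The median highest peak of all open protein-coding genes was 25.8.

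All 6 open SOX genes are described. SOX4, a progenitor and epithelial plasticity factor, had the highest fold at 30.4 (23.2 to 39.2). SOX9, a factor of cartilage and of regenerating tubule cells, reached 25.8 (19.2 to 33.9) at a summit 43 bp upstream of the TSS. SOX2, the pluripotency and neural factor, reached 23.7 (17.4 to 31.5) at a summit 47 bp upstream of its TSS. These 3 values were within each other's intervals. SOX12, a relative of SOX4 and SOX11, had a fold of 24.7 (18.3 to 32.7), with a summit 945 bp upstream of the TSS, just inside the promoter. SOX6, a cartilage and erythroid factor, also reached 24.7, at another TSS, with the summit 249805 bp upstream of the canonical one. SOX13, of the same subgroup as SOX6, was lowest at 9.79 (6.01 to 15.2), and its interval did not reach those of the others. The peaks of SOX4, SOX9, SOX12 and SOX6 were over 2 kb wide, and the median width over the 6 genes was 2141.5 bp.

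Among the T-box genes, TBX3, a repressor of limb, breast and ureteric mesenchyme, had the highest promoter, with a fold of 42.8 (34.1 to 53.0). TBX2, its close relative, reached 19.6 (13.9 to 26.8), and the intervals did not overlap. TBX15, known from limb and skeleton, had its only promoter peak at another TSS within the gene, with the summit 73822 bp downstream of the canonical TSS and a fold of 29.9 (22.8 to 38.6). TBX6, a factor of paraxial mesoderm, reached 24.2 (17.9 to 32.1). TBX10 had the weakest promoter of all open members at 6.18 (3.34 to 10.7), in a peak of 271 bp. The other 9 TBX genes had no promoter peak, among them TBXT, the mesoderm and notochord factor brachyury, and TBX21, the T-cell factor T-bet.

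All 6 GATA genes are described. GATA2, a factor of blood stem cells and the nephric duct, had 2 promoter peaks and none at its canonical TSS. The higher one, with a fold of 27.3 (20.5 to 35.7), lay at another TSS, with the summit 5244 bp downstream of the canonical one, and the lower one had a fold of 6.70 (3.71 to 11.3). GATA6, an endoderm and heart factor, had a fold of 19.1 (13.5 to 26.2) at a summit 109 bp upstream of the TSS, which it shared with the antisense gene GATA6-AS1. GATA1, the erythroid factor, had no promoter peak, and the strongest of the 3 peaks around it, at a fold of 54.1, was the promoter peak of HDAC6. GATA3, a nephric duct and T-cell factor, had no promoter or body peak. Its only peak within 50 kb had the lowest fold in the list, 5.15, and no summit came closer than 32155 bp to any of its TSSs. GATA4, an endoderm and heart factor, had 2 body peaks with folds of 5.15 and 14.4. GATA5, of the same subgroup, had 5 peaks outside the gene, of which the strongest is described below.

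The kidney list took in 15 members, of which 8 were open (53.3%; 26.6% to 78.7%), with the background of 61.4% inside that interval. FOXC1, an anterior and nephrogenic mesenchyme factor, was open at 21.1 (15.2 to 28.6), and FOXD1, the marker of kidney stroma, at 19.6 (13.9 to 26.8). FOXD2, SOX4, SOX9, TBX2, TBX3 and GATA2 made up the rest, with the values given above. The median of the 8 was 26.5, against 25.8 for all open genes.

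The 7 kidney genes that were not open differed in what lay around them. FOXC2, the partner of FOXC1, had a peak of 831 bp over its TSS whose summit, with a fold of 7.73 (4.46 to 12.6), lay 428 bp into the gene. SOX17, an endoderm and endothelial factor, had 8 peaks within 50 kb, with folds up to 39.2 and the nearest summit 4774 bp away. FOXI1, the factor of intercalated cells of the collecting duct, had 3, the strongest at 38.1. SOX8 had 5, with folds up to 25.2. TBX18, the marker of ureteric mesenchyme, had 1 body peak at the lowest fold and 5 peaks outside, up to 13.4. GATA3 had the single weak peak already given, and SOX11 had none, with its nearest summit 99191 bp away. In number of locus peaks these 7 genes ran from 8, at SOX17 and FOXC2, to none at SOX11. The median over all protein-coding genes was 7 (interquartile range 3 to 11).

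The lists tied to other lineages were small, and their intervals overlapped that of the kidney list. They share SOX17, TBX2, TBX3, TBX18, GATA2 and GATA3 with the kidney list, so the lists are not separate sets. Of 8 endoderm genes, 3 were open, FOXA1 at 11.3, FOXA3 at 29.4 and GATA6 at 19.1. FOXA2, the foregut and floor plate factor, had a peak over its TSS with a summit 211 bp into the gene and a fold of 14.4. Of 8 heart and limb T-box genes, TBX2, TBX3 and TBX15 were open. Of 6 neural SOX genes only SOX2 was, and 2 of the others, SOX3 and SOX21, had no peak in their locus. Of 5 blood and lymphoid genes only GATA2 was open, and FOXP3, the factor of regulatory T cells, had 3 peaks around it, of which 2 were in promoters of other genes. Against the 61.4% background, the intervals of these lists were wide and held it in each case.

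The 6 FOXD4 copies had no peak in any locus. Each of 5 has 5 other places in the reference that match its promoter at 95% identity or more over at least 500 bp, and FOXD4L5 has 2. The authors removed reads of mapping quality below 30, which takes out reads that fit several places, so absence at these genes cannot be told apart from missing reads. FOXO3B, a copy of FOXO3 sequence, matched elsewhere at 98.5%, and TBX22 matched an alternative sequence. None of these 8 members was open. Without the 6 copies the share was 34 of 84 members (40.5%; 29.9% to 51.7%), and 21 of 45 FOX genes (46.7%).

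Of the 56 members without a promoter peak, 11 had a peak in the body, 31 had peaks only outside the gene and 14 had none in the locus. Over all 90 members, 84.4% (75.3% to 91.2%) had a peak in the locus, against 92.2% of all protein-coding genes. The 14 include the 6 FOXD4 copies, and without these copies the share was 90.5% (82.1% to 95.8%), with 92.2% inside the interval. The edge of the promoter window decided a few calls. FOXS1 was open at 992 bp upstream of its TSS, while FOXA2, FOXC2, FOXO3 and SOX5 had a peak whose interval reached into a promoter but whose summit did not. FOXL3 had a summit 570 bp from a TSS in its body, with a fold of 22.2. The remaining 52 had neither. Members without a promoter peak were as GC-rich as many open ones, with a median of 59.1% against 62.0%, and 26 of the 46 members at 60% GC or more had no promoter peak.

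Over whole loci, members had a median of 5 peaks (interquartile range 2 to 8), against 7 (3 to 11) for all protein-coding genes. A body peak was found in 31 members (34.4%; 24.7% to 45.2%), against 52.4%. A peak outside the gene within 50 kb was found for 76 members (84.4%; 75.3% to 91.2%), against 89.0%, which is within the interval. Pooled over all bodies, the density hardly differed, with 2.95 body peaks per 100 kb in members and 3.09 in all genes. Long genes weigh most in this value, and single members varied. Among the longest, the density was 0.484 at SOX5, 0.905 at SOX6, 7.47 at FOXP1 and 2.96 at FOXP2. Of the peaks outside the gene, 28.2% lay in a promoter of another gene, against 32.0% around all genes.

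Of the 160 body peaks, 103 lay in FOXP1, FOXP2, FOXO3, FOXN3 and FOXK1. FOXP1, a repressor of B-cell, lung and heart development, held 47 body peaks and 6 promoter peaks over 629.3 kb, and only 11 protein-coding genes held more body peaks. FOXP2 held 18 and FOXO3 15. FOXN3, a cell cycle checkpoint repressor, held 13, and FOXK1 held 10. All 5 are long genes, from 89.1 kb to 629.3 kb. Most body peaks were intronic, 141 against 19 in exons. The median fold was 10.3 for body peaks and 11.3 for peaks outside, both below the 18.6 of the 47 member promoter peaks. Peaks with a pileup under 15 made up 63 of the body peaks and 106 of the 355 outside the gene, so many of these rest on few reads.

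**Figure D3:**
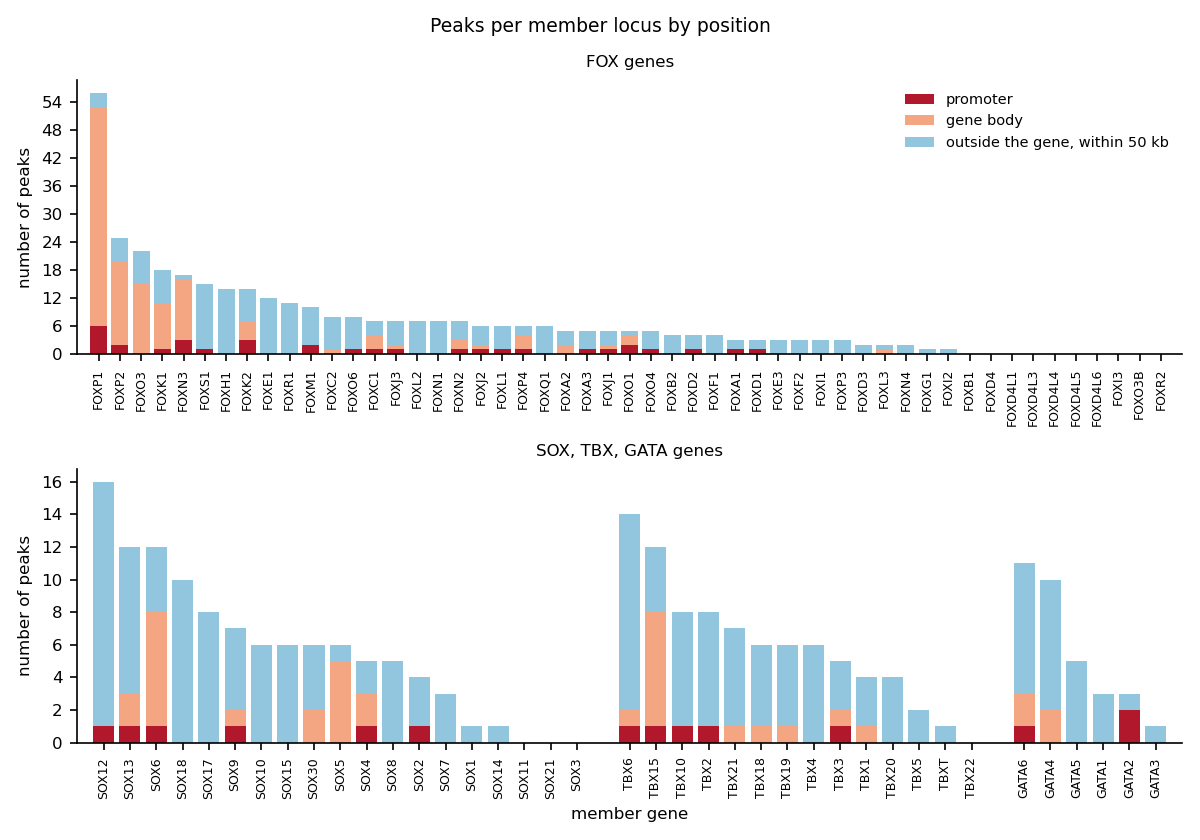
Number of peaks at each of the 90 member loci, stacked by position (promoter, gene body, and outside the gene within 50 kb), ordered within each family. FOXP1 leads with 56 peaks, most of them in the gene body, and 14 members have none, among them the 6 FOXD4 copies.

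Among members without a promoter peak, 6 had the richest surroundings. FOXO3 had 22 peaks in body and flanks. FOXH1, a partner of SMAD proteins in nodal signalling, had 14, of which 9 were in promoters of other genes. FOXE1, a thyroid and palate factor, had 12, none of them in another promoter. FOXR1 had 11, of which 7 were in promoters of other genes. SOX18, an endothelial factor, and GATA4 had 10 each, with 6 and 4 in other promoters. The FOXE1 locus was thus the richest among these 6 in peaks away from any promoter outside the gene.

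The strongest peaks away from any promoter are shown next, as 50 bases to each side of the summit on the + strand of hg38. Those of FOXE1, SOX9 and TBX15 are the strongest such peaks in the FOX, SOX and TBX loci, and that of TBXT is the only peak in its locus. Capitals mark the words searched.
FOXE1 locus (chr9:97877356-97877456, + strand): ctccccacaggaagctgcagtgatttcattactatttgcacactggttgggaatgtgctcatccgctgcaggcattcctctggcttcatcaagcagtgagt
SOX9 locus (chr17:72151708-72151808, + strand): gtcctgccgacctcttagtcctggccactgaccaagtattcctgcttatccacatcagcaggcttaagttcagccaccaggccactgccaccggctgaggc
TBX15 intron (chr1:118960756-118960856, + strand): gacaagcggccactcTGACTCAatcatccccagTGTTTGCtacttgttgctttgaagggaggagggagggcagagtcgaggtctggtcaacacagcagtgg
TBXT locus (chr6:166112757-166112857, + strand): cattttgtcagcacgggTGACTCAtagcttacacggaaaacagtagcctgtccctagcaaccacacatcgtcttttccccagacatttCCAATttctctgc
In the TBX15 intron the AP-1 word TGACTCA and the forkhead word TGTTTGC lay close together, and the TBXT stretch held TGACTCA and CCAAT. The FOXE1 and SOX9 stretches held none of the words.

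The FOXE1 peak lay 24180 bp downstream of the TSS, with a fold of 80.4 (68.3 to 94.0) that was above 99.5% of all peaks in the library. Its interval overlapped that of the FOXN2 promoter, the highest among members, and FOXE1 itself had no promoter peak. In FOXK1 an intronic peak 62926 bp into the gene had a fold of 62.3 (51.8 to 74.5), against 14.9 at its promoter, and the intervals did not overlap. A peak 71073 bp downstream of the FOXO6 TSS had a fold of 59.3 (49.0 to 71.1). Peaks with a fold of 49.5 (40.1 to 60.4) lay 25033 bp upstream of FOXK2, 26101 bp upstream of GATA5 and 30738 bp downstream of SOX9. The SOX9 peak was above the SOX9 promoter at 25.8, and a further peak 25152 bp downstream reached 29.4. TBX15 had 7 body peaks, of which the highest, at 47.4 (38.3 to 58.1), lay in an intron 27537 bp into the gene. The TBXT peak, with a fold of 43.3 (34.6 to 53.5) at 55044 bp downstream of its canonical TSS, was the only peak in that locus. Distance alone assigned these peaks, and whether they act on the member was not tested.

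Several members sit beside another of the same family, and in 5 such groups an open and a non-open gene were neighbours. FOXE3, a lens factor, had no promoter peak 19992 bp from FOXD2, and the FOXD2 promoter was the strongest peak in the FOXE3 locus. TBX5, the heart and forelimb factor, had no promoter peak 261813 bp from TBX3, and its 2 nearby peaks had folds of 6.18 and 7.73. TBX4, the hindlimb factor, had none 42938 bp from the open TBX2. In the FOXF1, FOXC2 and FOXL1 group only FOXL1, a factor of gut mesenchyme, was open, with a fold of 23.2 (17.0 to 31.0) at another TSS, with the summit 2535 bp upstream of the canonical one. FOXC2 ended 6640 bp before FOXL1, and FOXF1, a factor of lung and gut mesenchyme, lay 51407 bp before FOXC2. In the FOXQ1, FOXF2 and FOXC1 group only FOXC1 was open, although the strongest peak of that group, at 32.5, lay 13679 bp from the FOXQ1 TSS.

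**Figure D4:**
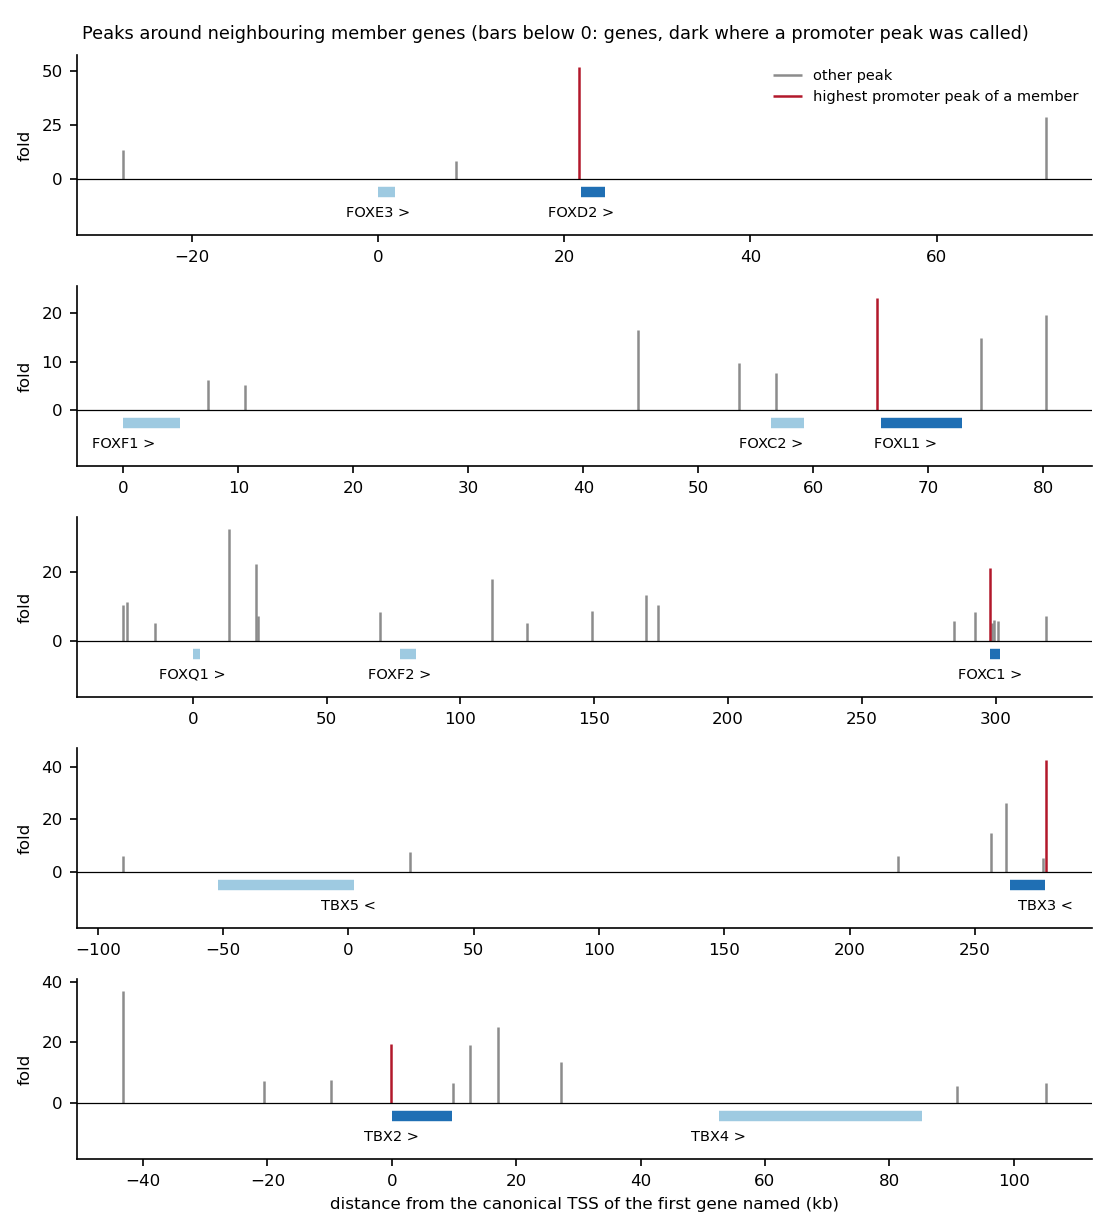
Fold of each peak (vertical lines) against distance in kb from the canonical TSS of the leftmost gene in 5 groups of neighbouring members, with genes as bars below 0, dark blue where a promoter peak was called and light blue where none was. Red lines are the highest promoter peaks, at FOXD2 (52.0), FOXL1 (23.2), FOXC1 (21.1), TBX3 (42.8) and TBX2 (19.6).

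Relatives of these families that the symbols miss gave a mixed picture. TRPS1, a GATA-type repressor, was open at 27.8. MGA, a MAX partner with a T-box, was open at 10.3. ZFPM1, the cofactor FOG1 of GATA factors, was open at 26.8, while its relative ZFPM2 and the T-box genes EOMES and TBR1 had no promoter peak. So 3 of these 6 were open (50%; 11.8% to 88.2%), against 61.4% of all protein-coding genes, which is within that interval.

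Short words bound by each family were searched for on both strands within 50 bp of the summits of the 559 distinct peaks at member loci. For the forkheads these were TGTTTAC, the core of their consensus, and a close variant, TGTTTGC. For SOX they were ACAATGG, the core seen by the HMG box, and a close variant, ACAATAG. For the T-box they were AGGTGTGA, one side of the T site, and its close variant, AGGTGTTA. For GATA factors they were AGATAA, the usual WGATAR form, and its other form, TGATAA. The word of AP-1 was TGACTCA, whose reverse complement is read as TGAGTCA, and that of NF-Y was CCAAT. No word of any set contains a word of another set. A FOX word was found in 2.86% (1.64% to 4.61%) of member peaks and in 3.34% of all peaks. For SOX the shares were 1.61% (0.739% to 3.03%) and 1.81%. For GATA they were 8.77% (6.56% to 11.4%) and 7.81%, so for these 3 families the value over all peaks lay within the interval of the members.

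The TBX word was found in 1 of the 559 peaks, 0.179% (0.00453% to 0.993%), against 0.621% of all peaks, which is within that interval. The AP-1 word was found in 12.3% (9.73% to 15.4%) of member peaks and 15.7% of all peaks, just above the interval. At peaks outside any promoter it was found in 15.2% (11.9% to 19.1%) of 408 member peaks. The share over all peaks outside any promoter was 18.0%, which is within that interval. In windows 1 kb away from member summits that lay in no peak it was found in 0.835% (0.361% to 1.64%), the widest gap between summit and flank among the 6 word sets. The GATA word stood at 8.66% in those flanks. The TBX word was found in 1.88% (1.12% to 2.95%) of them, above the interval at the summits. CCAAT was found in 14.7% (11.8% to 17.9%) of member peaks and 12.8% of all peaks. At the 47 member promoter peaks it was found in 9, or 19.1% (9.15% to 33.3%), against 15.7% of all promoter peaks. Within 25 bp of those summits it was found in 8 (17.0%; 7.65% to 30.8%), against 8.80%. A match is a description of the letters and does not show that a factor was bound.

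**Figure D5:**
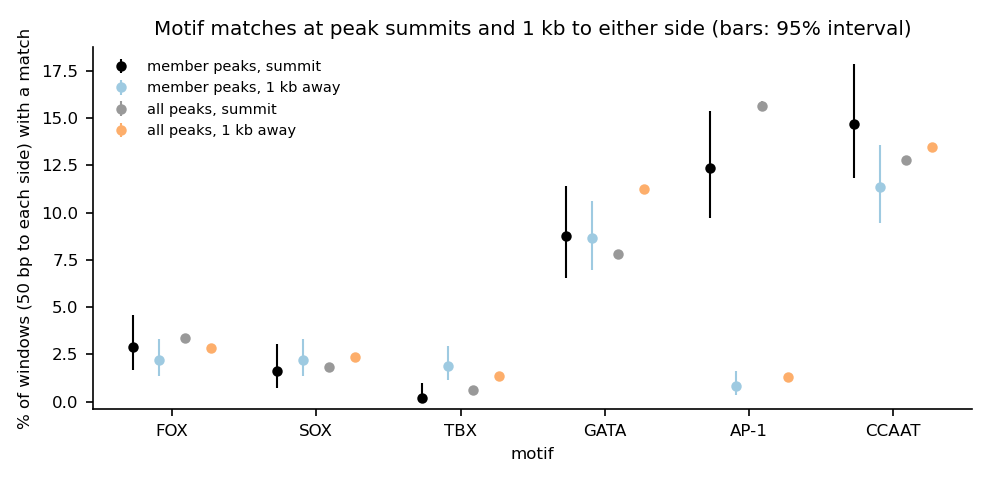
Percent of windows (50 bp to each side) with a match to each word set, at summits and in peak-free windows 1 kb to either side, for the 559 member peaks and for all peaks, with 95% intervals. AP-1 stands at 12.3% at member summits against 0.835% beside them, while for the FOX, SOX and GATA words the intervals of the member peaks overlap at summits and beside them.

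The label of the library was compared with cell markers. Among the renal markers, the renal lineage factors PAX8 (fold 31.9) and PAX2 (22.7) and the mesenchymal filament gene VIM (47.9) had promoter peaks. The adhesion gene CDH6 and the hypoxia target CA9 had peaks near but not at a promoter. Of 6 markers of blood, endothelium, liver and muscle, none had a promoter peak. All 6 had a peak outside the gene within 50 kb, and 2 had body peaks. These 2 were the endothelial genes PECAM1 (highest 45.9) and CDH5 (40.2), against a highest body peak of 36.1 in CDH6. Peaks away from promoters thus did not tell the renal markers from the others.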

How the data were processed

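ATAC-seq was done on 1 library of 786-O cells with an empty vector. The peak names in the list carry a WT tag, and the label was used. Per the study's methods, the authors used fastp for trimming and Bowtie2 for alignment to hg38, removed mitochondrial reads, duplicates and reads of mapping quality below 30, and called peaks with MACS2 without local background. The submitters' processing notes name Bowtie2 2.3.4.3 and MACS2 2.2.6. A shift of reads for Tn5 was not stated, and a score minimum is stated for the study's ChIP-seq peaks but not for these, of which the lowest has a score of 52. The deposited list gives each peak's coordinates and summit, a score, a fold (the ratio of pileup to background at the summit), and the −log10 of the p-value and the q-value. The total read number is not in the sources used here. From the deposited fold, (pileup + 1) / (background + 1), whole pileups were recovered with a largest departure of 1.69e-05, at a background of 0.941, and exact Poisson 95% intervals were set on them. Shares have Clopper-Pearson intervals, and medians have order-statistic intervals. All of these cover counting error only.

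Genes and TSSs came from GENCODE 44, and all its protein-coding genes served as background. Copies of promoters were searched with minimap2 (2.31), at 95% identity over 500 bp. Scripts ran under Python 3.11.15 with scipy 1.17.1, numpy 2.4.6 and pandas 2.3.3, and figures were drawn with matplotlib 3.10.9. The assignment of peaks was tested on simulated data. Members and lists were chosen with earlier results of these data known. Full values are given for the 6 highest promoters of each of FOX, SOX and TBX, all GATA genes, the kidney list, the 6 members without a promoter peak that have most peaks around them, and the 5 strongest peaks outside promoters, with ties. FOXL3, SOX5, FOXS1, TBXT and the neighbouring genes were named after their values were seen. The score minimum, promoter window, TSS set, overlap rule, distance and motif window were varied. The CCAAT and AP-1 words were added after the data were seen. A few promoter sequences and 1 marker gene are not reported here.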

Additional observations from a re-analysis of the deposited data

How the results depend on the processing

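Of 59 values recomputed under another setting, 47 moved by less than their own interval, and these include every share of open members, by family and in all, and the median promoter fold. The share over all members ran from 32.2% (29 of 90) with the canonical transcript only to 44.4% (40 of 90) with 2.5 kb to both sides of a TSS. The other 12 moved further. With a score above 200, 20% of members had a gene body peak, 71.1% had a peak outside the gene, and the median locus held 2.5 peaks. With a distance of 10 kb, 52.2% had a peak outside the gene and the median locus held 1.5, and with 100 kb these were 94.4% and 8.5. Within 25 bp of the summit, the word shares were 1.25% for FOX, 0.179% for SOX, 4.29% for GATA, 6.98% for AP-1 and 7.69% for CCAAT, the last pair chosen after the data were seen. Fewer peaks, a shorter reach or a shorter window hold fewer peaks or words by construction. No paired analysis was possible because the list comes from a single sample. The list holds only pileups of 9 or more, so weaker accessible sites at members without a peak are not in it. Whether depth or a score cut set that floor is not stated, and differences between libraries were not measured.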
